A study of Taeniopygia guttata with 46 samples.

Results

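The 100 genes described here were detected in both the posterior telencephalon, a forebrain region, and the testis of adult male zebra finches, and differed in the same direction in both tissues between birds at 43 °C and cooler birds. Of 18618 genes counted, 8528 had a mean of at least 5 CPM (counts scaled to the same library total) in each tissue, and 6718 of these also had tissue means within 4-fold of each other. In each tissue a t value with unequal variances compared log2(CPM + 0.5) of birds at 43 °C with birds at 27 and 35 °C pooled. Among the 3436 genes with the same sign of t in both tissues, the 100 with the highest smaller absolute t were taken. The values at 43 °C therefore chose these genes, and they are given as a description with no test.

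Birds were held for 5 h in air at 27, 35 or 43 °C, which is below, within or above the thermoneutral zone, the range that needs no added effort to keep warm or cool. The telencephalon was measured in 8 birds per temperature, and the testis in 7, 8 and 7 birds at 27, 35 and 43 °C. Both tissues came from the same birds, 22 of the 24, so the tissues are not independent samples of the temperature. Birds of the 3 groups carried no other treatment in the labels, and the tissues are mixtures of cell types, in which fewer cells of a type and less RNA per cell cannot be told apart. Telencephalon libraries held 10.2 to 16.9 M counts, and testis libraries 14.2 to 25.4 M.

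In vertebrates, high temperature is known to induce heat shock proteins, chaperones that hold unfolded proteins, through heat shock transcription factors. Brain and testis are both regarded as heat-sensitive organs, and in the testis the developing germ cells are known as the vulnerable cells. The files name genes by Ensembl identifier only, and the RefSeq gene table used here pairs none of the 18618 identifiers with a symbol. No function, position or sequence is therefore given to any gene below, and neither heat shock genes nor the marker genes of either tissue could be looked up.

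Of the 100 members, 83 were lower and 17 were higher at 43 °C. The differences were small. In the telencephalon the median log2 difference was -0.18 over the 83 lower members (range -0.87 to -0.08) and 0.21 over the 17 higher members (0.06 to 0.40). In the testis it was -0.24 (-0.94 to -0.11) and 0.25 (0.10 to 0.56). Over all 6718 eligible genes the median was -0.02 in each tissue. The difference was below 1.2-fold for 79 members in the telencephalon and for 56 in the testis, beside 6520 and 6054 of the 6718 eligible genes. It passed 1.5-fold for 2 members in the telencephalon and 4 in the testis, beside 14 and 44 eligible genes, and 1 member passed it in both. The larger log2 change was the testis one in 81 members, beside 61.2% of all eligible genes. The testis also had the larger spread between birds, with a median SD within temperatures of 0.25 log2 units over the members against 0.19 in the telencephalon. The median member was measured at 41.6 CPM in the telencephalon and 40.6 CPM in the testis, beside 40.3 and 38.8 CPM for all eligible genes. The fewest counts behind any single value were 22.

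The limit of the list fell among close values. The last member had a smaller absolute t of 1.801 (its testis value), and the first gene left out had 1.798. At the same limit, 77 eligible genes differed in opposite directions in the tissues, 44 higher at 43 °C in the telencephalon and 33 higher in the testis. Over all eligible genes, 51.1% had the same sign in both tissues.

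**Figure D1:**
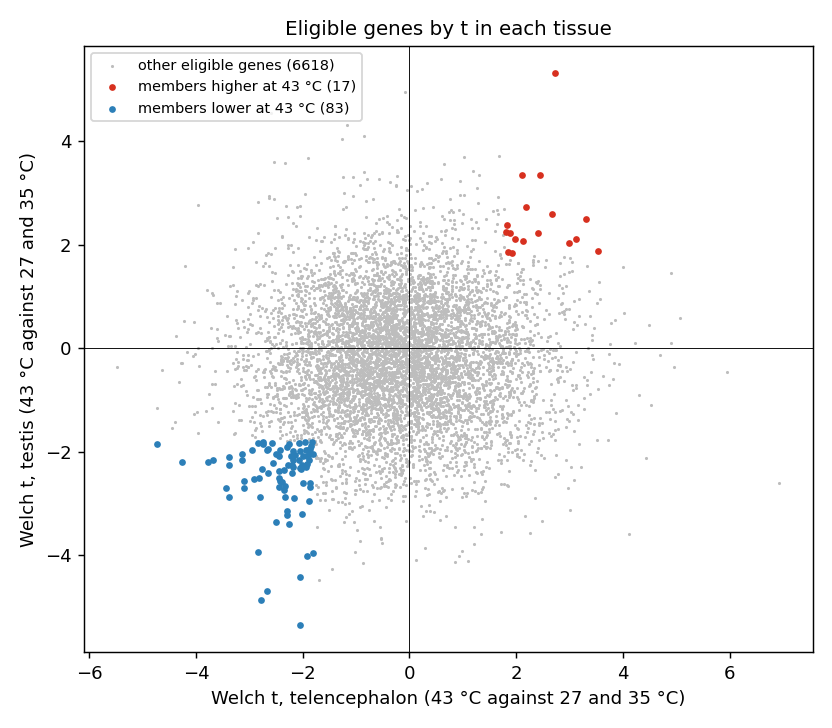
The t value for 43 °C against 27 and 35 °C in the telencephalon (horizontal) and testis (vertical), 1 point per eligible gene, with the 17 higher members in red, the 83 lower members in blue and the other genes in grey. The members fill the corners in which both t values pass 1.80, and the opposite corners hold 77 genes past the same limit.

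The excess of lower members depended on how libraries were scaled. The CPM used to choose the members divide each count by the total of its library. When library sizes were instead scaled by the trimmed mean of M values (TMM), which sets the bulk of genes equal between libraries, the same rule gave 59 higher and 41 lower genes. Of the 100 members, 58 remained among the first 100, namely all 17 higher and 41 of the 83 lower. The other 42 genes of that list were all higher at 43 °C. The median log2 difference of the eligible genes moved by little, to -0.0038 in the telencephalon, while the testis median went to 0.02. Of the eligible genes with the same sign, 63.3% were lower at 43 °C on library totals and 46.8% after TMM scaling. The balance of 83 lower to 17 higher thus did not hold under TMM scaling. The scaling shifts the difference between groups about alike for all genes, by less than the smallest difference of a member, so it could not turn a member's direction. With TMM, 72 genes of opposite sign passed the limit reached by the last gene of that list.

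No member was past the threshold in either tissue when all genes were tested for the same contrast with edgeR, a model of the counts, at a Benjamini-Hochberg adjusted p under 0.05. The rule used this contrast, so the counts are given as background. In the telencephalon 0.0453% of 13254 genes were called (6 genes, none a member), and the lowest adjusted p of a member was 0.137. In the testis 0.0% of 14149 genes were called, and the lowest adjusted p of a member was 0.358. At an unadjusted p under 0.05 the telencephalon count was 64 of 100 members (all genes: 12.3%) and the testis count 46 (all genes: 7.9%). By direction these were 13 of 17 higher and 51 of 83 lower members in the telencephalon. In the testis they were 14 of 17 higher and 32 of 83 lower members. DESeq2, another count model, called 95 of the 6832 genes it gave an adjusted p in the telencephalon (1.39%), of which 2 were members. Only 69 of the 100 members were given one there, so the other members could not be called. In the testis DESeq2 called 5 of 13786 genes (0.0363%), of which 3 were members. There all 100 members had an adjusted p. In no member did the birds at 43 °C lie apart from all other birds in either tissue, nor did they in any eligible gene (0.0%).

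**Figure D2:**
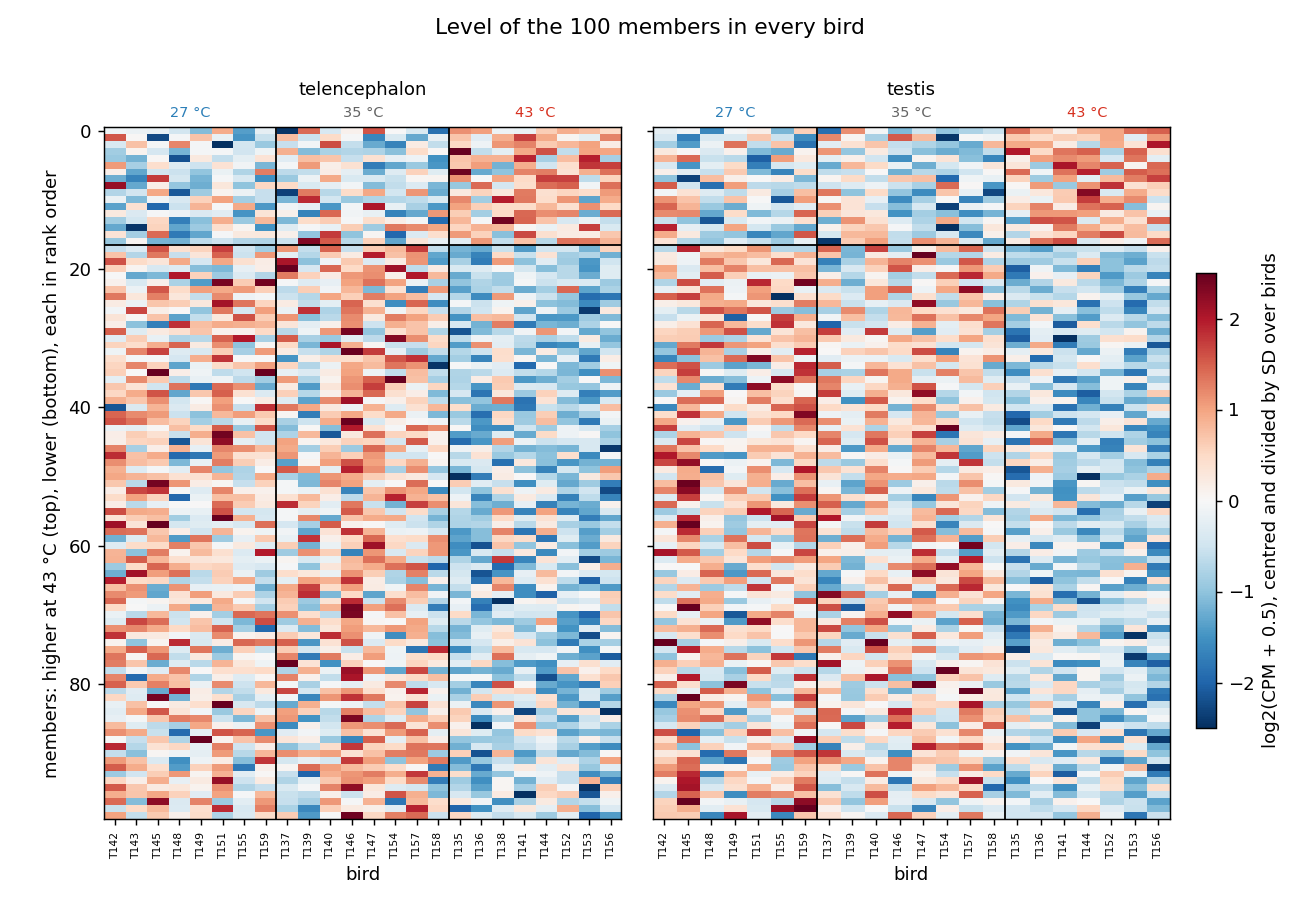
Level of each of the 100 members (rows, the 17 higher ones above the line) in every bird (columns, grouped by temperature) in the telencephalon and testis, as log2(CPM + 0.5) centred on the gene's mean and divided by its SD over birds. The birds at 43 °C differ in colour from the others by construction, and single rows hold many exceptions.

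Of the higher members, ENSTGUG00000014693 had the highest smaller absolute t. In the testis its level was 26.8, 40.7 and 48.7 CPM (lowest, median and highest bird) at 27 °C, 25.02, 34.7 and 56.7 CPM at 35 °C and 42.9, 53.6 and 61.9 CPM at 43 °C. In the telencephalon the values were 16.5, 21.0 and 26.5 CPM at 27 °C, 13.2, 21.1 and 30.3 CPM at 35 °C and 21.2, 25.2 and 27.6 CPM at 43 °C. All birds at 43 °C lay above the median of the cooler birds in both tissues, but the highest telencephalon values, 30.3 and 29.2 CPM, belonged to birds T147 and T139 at 35 °C. The log2 difference was 0.56 ± 0.11 (SE) in the testis and 0.25 ± 0.093 (SE) in the telencephalon.

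ENSTGUG00000017101 had the largest smaller difference among the higher members. Its telencephalon level was 8.44, 10.7 and 11.7 CPM (lowest, median, highest) at 27 °C, 8.63, 9.38 and 14.3 CPM at 35 °C and 9.70, 14.6 and 24.5 CPM at 43 °C. In the testis it was 4.75, 7.09 and 7.57 CPM at 27 °C, 4.78, 5.52 and 9.82 CPM at 35 °C and 5.53, 10.6 and 12.9 CPM at 43 °C. Bird T135 was the highest in both tissues, and 5 of 8 telencephalon and 4 of 7 testis values at 43 °C exceeded every cooler bird. The log2 difference was 0.40 ± 0.16 (SE) in the telencephalon and 0.55 ± 0.17 (SE) in the testis.

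ENSTGUG00000013819 ranked first of all 100 members and was lower at 43 °C. In the telencephalon it was at 2.79, 4.95 and 12.9 CPM (lowest, median, highest) at 27 °C, 3.32, 7.29 and 12.97 CPM at 35 °C and 1.98, 2.87 and 6.60 CPM at 43 °C. In the testis it was at 4.44, 7.33 and 15.7 CPM at 27 °C, 3.61, 8.10 and 14.3 CPM at 35 °C and 3.17, 4.78 and 6.72 CPM at 43 °C. The cooler birds spread over a wide range that overlapped the birds at 43 °C, none of which passed 6.72 CPM in either tissue. At 43 °C the mean was 3.24 CPM in the telencephalon and 4.75 CPM in the testis. Both lie below the limit of 5 CPM, which this gene passed through the cooler birds (means over all birds 5.61 and 7.13 CPM). Its telencephalon values at 43 °C rest on 22 to 95 counts. The log2 difference was -0.87 ± 0.26 (SE) in the telencephalon and -0.62 ± 0.21 (SE) in the testis. Other lower members also had testis means over all birds close to the limit of 5 CPM. The mean was 5.70 CPM for ENSTGUG00000008348 (log2 difference -0.59) and 5.79 CPM for ENSTGUG00000015170 (-0.52). For ENSTGUG00000007746 it was 5.42 CPM (-0.48) and for ENSTGUG00000007165 5.30 CPM (-0.29). Testis means of these genes at 43 °C are not given here and may also lie below 5 CPM.

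ENSTGUG00000005744 had the next largest smaller difference among the lower members. Its telencephalon level was 6.60, 9.22 and 14.3 CPM (lowest, median, highest) at 27 °C, 4.31, 10.2 and 21.3 CPM at 35 °C and 2.55, 4.67 and 10.999 CPM at 43 °C. In the testis it was 5.74, 7.05 and 13.6 CPM at 27 °C, 5.82, 7.71 and 17.9 CPM at 35 °C and 3.65, 7.76 and 8.60 CPM at 43 °C. In the testis, 4 of the 7 birds at 43 °C lay above the median of the cooler birds, although the mean was lower. The log2 difference was -0.70 ± 0.28 (SE) in the telencephalon and -0.45 ± 0.22 (SE) in the testis.

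**Figure D3:**
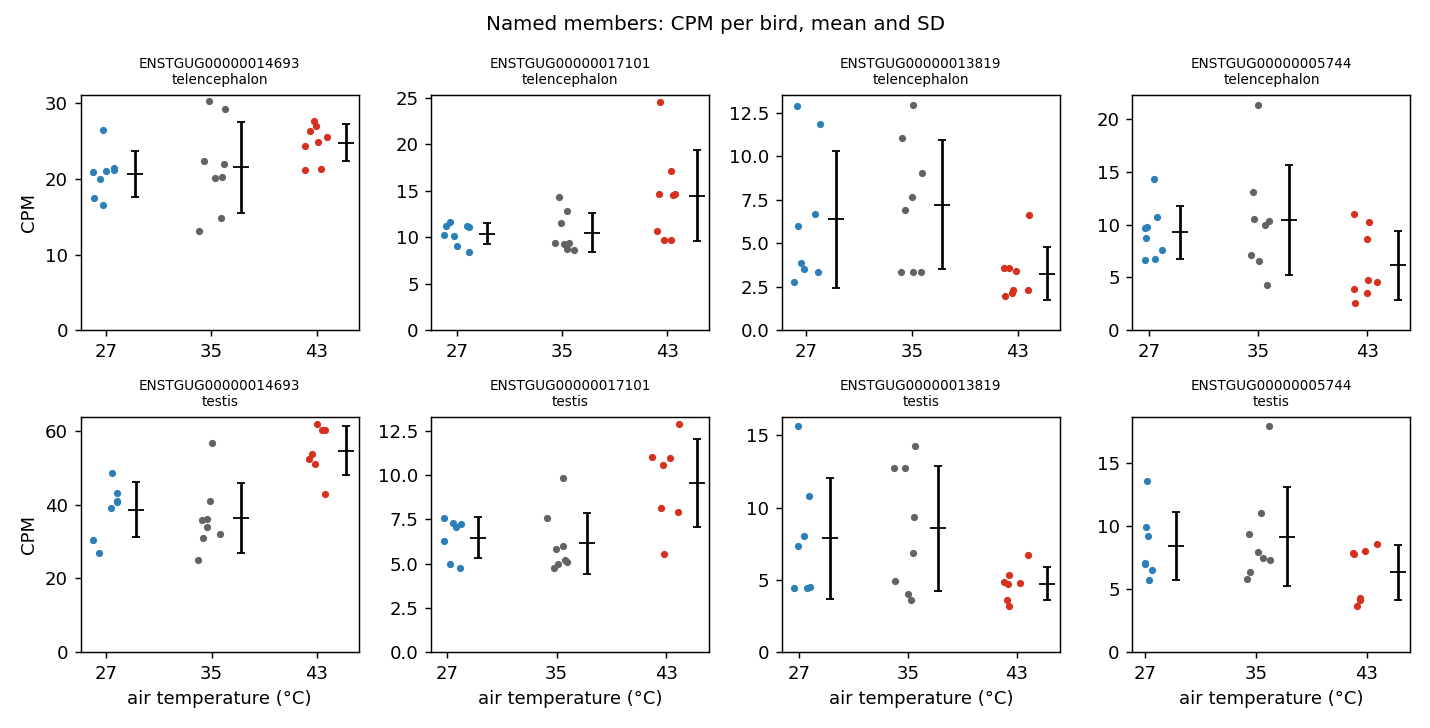
CPM of the 4 named members in each bird (points) at 27, 35 and 43 °C (horizontal), with the mean and SD of each group, telencephalon above and testis below. In ENSTGUG00000013819 the cooler birds range up to 15.7 CPM and the birds at 43 °C stay at or below 6.72 CPM.

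The contrast between 27 and 35 °C, which the rule did not use, asks whether the members also differed between the temperatures that it pooled. These comparisons share their cooler birds with the contrast at 43 °C, and a choice by t favours genes with little spread among those birds. No member was called in either tissue by edgeR or DESeq2, and neither was any other gene (0.0% in each tissue by either tool). At an unadjusted p under 0.05 edgeR had 448 of 13254 telencephalon and 612 of 14149 testis genes, and DESeq2 537 of 16995 and 782 of 17508. In edgeR, 5 members lay at an unadjusted p under 0.05 in the telencephalon, beside 3.38% of all genes, and 4 in the testis, beside 4.33%. DESeq2 gave 5 and 4. These shares are close to the background. The median log2 difference of 27 against 35 °C in edgeR was -0.0050 over the 17 higher and 0.02 over the 83 lower members in the telencephalon, and 0.06 and 0.03 in the testis. Over all genes tested it was 0.00050 and 0.0049, and over the eligible genes, from which the members came, 0.00080 and 0.021. The named members had log2 differences of -0.17 to -0.0050 (telencephalon) and -0.12 to 0.07 (testis) (edgeR adjusted p of at least 0.974 for all 4).

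The members at 43 °C can also be set against each cooler group alone. Over the 83 lower members, the median log2 difference was -0.16 against 35 °C and -0.18 against 27 °C in the telencephalon, and -0.22 and -0.25 in the testis. Over the 17 higher members it was 0.20 and 0.22 in the telencephalon and 0.29 and 0.28 in the testis. The values against each group were thus near each other, but they share the birds at 43 °C. The rule also chose the members on these same values with both cooler groups pooled. A like difference against each group is therefore favoured by the choice, and the values are a description.

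Whether the response of a member differed between tissues was tested as an interaction over all 46 libraries. This main fit took both tissues of a bird as independent libraries and did not pair them. Since the rule asks for the same sign, the members' values are a description. No member was called by edgeR, beside 0.024% of 12523 genes (3 genes), and 3 members lay at an unadjusted p under 0.05, beside 10.4% of all genes. DESeq2 called 54 of the 14530 genes it gave an adjusted p (0.372%), none of them a member. At an unadjusted p under 0.05 DESeq2 had 4 of the 100 members, beside 1627 of all genes with an unadjusted p. That set is not limited to the 14530, and its size is not given here, so no share is stated. With the bird as a block, which pairs the tissues and keeps the 22 birds with both, edgeR called none of 12543 genes. At an unadjusted p under 0.05 lay 1226 of them.

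Both tissues of a bird could also be compared within temperatures. This measure is not independent of the choice, since deviations that a bird shares between its tissues enter both differences at 43 °C, and it is given with no test. After the mean of each temperature had been removed, the correlation between telencephalon and testis over 22 birds had a median r of 0.24 over the 100 members (range -0.34 to 0.93). Over the 6718 eligible genes the median r was 0.16, and over the 3436 of the same sign, from which the members came, it was 0.19. It exceeded 0.5 in 20 members, beside 11.6% of eligible and 14.1% of same-sign genes. It exceeded 0.8 in 5 members, all among the 83 lower of the 100, beside 0.655% of eligible and 0.990% of same-sign genes. It was below 0 in 21 members, beside 27.95% of eligible and 859 of the 3436 same-sign genes.

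In ENSTGUG00000013819, the member ranked first, the tissues followed each other most closely of all 100 members. Its residual Pearson r was 0.926 and Spearman's rho 0.932, and r was 0.929 without the 2 birds farthest from the median. Among the eligible genes this r lay at percentile 99.9. Bird T145 at 27 °C had 11.9 CPM in the telencephalon and 15.7 CPM in the testis, and bird T140 at 35 °C had 11.1 and 14.3 CPM. Bird T142 at 27 °C had 3.35 and 4.53 CPM, and bird T139 at 35 °C had 3.33 and 3.61 CPM. These birds at 27 or 35 °C were thus high or low in both tissues together. At 43 °C bird T156 was the highest in both tissues. Bird T141, the lowest there in the telencephalon at 1.98 CPM, had 4.74 CPM in the testis, above T135 (3.61 CPM) and T136 (3.17 CPM). For ENSTGUG00000014693 r was 0.569 (percentile 92.8) and rho 0.336, with an r of 0.518 without the 2 farthest birds. For ENSTGUG00000017101 r was 0.601 (percentile 94.1) and rho 0.389, with an r of 0.546 without them. For ENSTGUG00000005744 r was -0.243 (percentile 7.29) and rho -0.250, with an r of -0.073 without them. These values are given with no test, for the same reason.

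**Figure D4:**
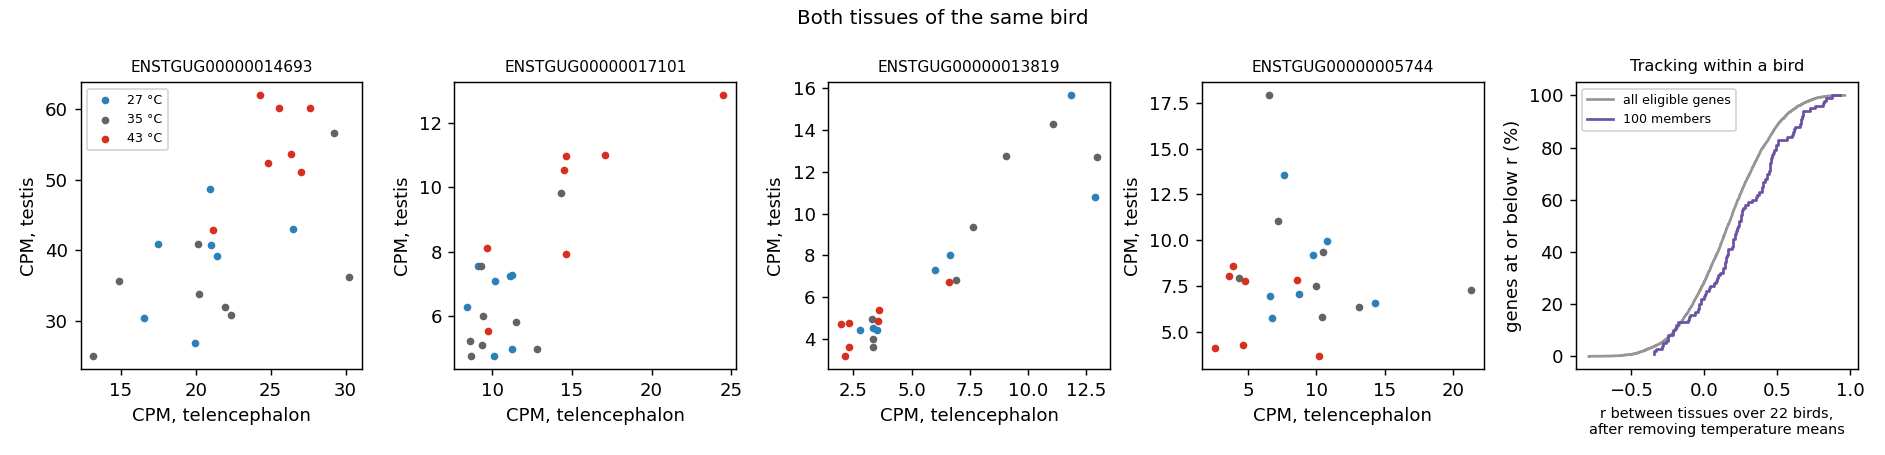
CPM of the 4 named members in the telencephalon (horizontal) and testis (vertical), 1 point per bird coloured by temperature, and at the right the cumulative share of genes by their r between tissues after removal of temperature means. In ENSTGUG00000013819 the 22 birds lie along a line at all temperatures, and the curve of the 100 members lies to the right of that of the 6718 eligible genes over most of its length.

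The members were also summarised per bird, as the mean of standardised log2 levels over higher members minus that over lower members, divided by 2. With the members as chosen, the telencephalon summary was 0.607 ± 0.195 (SD, n = 8) at 43 °C and -0.303 ± 0.195 (SD, n = 16) in the cooler birds. In the testis it was 0.649 ± 0.160 (SD, n = 7) and -0.303 ± 0.262 (SD, n = 15). This separation follows from the choice. Bird T138 at 43 °C had the lowest telencephalon summary of its group, 0.213, just below bird T139 at 35 °C with 0.219. T139 was the highest of the cooler birds in both tissues, at 0.275 in the testis.

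To see how far the pattern reached birds that had no part in the choice, the 100 genes were chosen again without each bird in turn, and that bird was then summarised on them. The telencephalon summary was then 0.132 ± 0.362 (SD, n = 8) at 43 °C and -0.062 ± 0.250 (SD, n = 16) in the cooler birds. The difference of 0.194 was 21.3% of the 0.910 seen with the bird included. In the testis it was 0.0612 ± 0.163 (SD, n = 7) and 0.0035 ± 0.284 (SD, n = 15), a difference of 0.0576, or 6.05% of 0.952. Both differences were smaller than the SD of the birds at 43 °C and that of the pooled cooler birds, although the telencephalon one exceeded the SD of 0.118 at 27 °C. Above the median of the cooler birds lay 7 of 8 birds at 43 °C in the telencephalon and 5 of 7 in the testis, and none exceeded the highest cooler bird in either tissue.

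Single birds stood out in these summaries. T138, whose testis was not among the libraries, had the lowest telencephalon value of all birds, -0.648, although it was kept at 43 °C. T139 at 35 °C had the highest value in both tissues, 0.608 and 0.442. When the birds with both tissues alone were used, which leaves out T138 and T143, the telencephalon difference was 0.418 and the testis difference 0.329. After TMM scaling it was 0.371 and 0.235. Over the 16 alternatives tried it stayed above 0 in the telencephalon, with 0.0533 without the 3 birds whose paired-end testis run was the deeper one as the lowest, and ran from -0.0445 to 0.329 in the testis, below 0 in 2 of them. Those 3 birds were at 35 °C (T154 and T157) and 43 °C (T156), and the run and the loss of birds cannot be told apart.

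**Figure D5:**
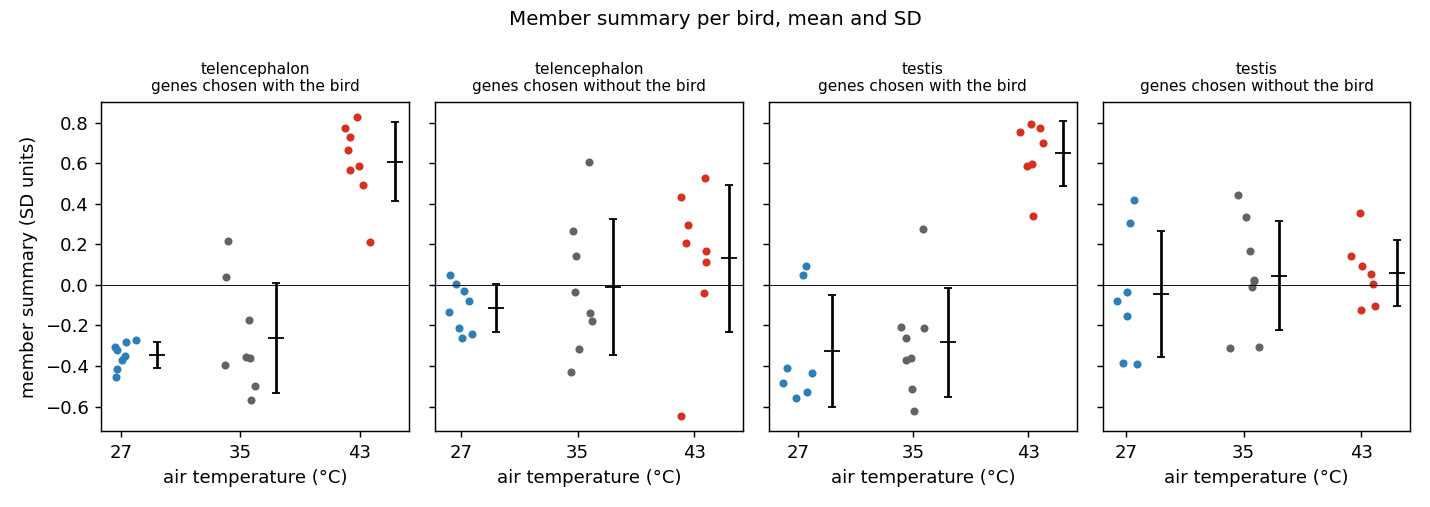
Member summary of each bird (points, in SD units) at 27, 35 and 43 °C with the mean and SD of each group, for genes chosen with the bird and for genes chosen without it, in telencephalon and testis. With the bird left out of the choice, the groups overlap in both tissues and the difference falls to 0.194 (telencephalon) and 0.0576 (testis).

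The list itself changed with single birds. Without 1 bird at 27 or 35 °C, 78 to 89 of the 100 members were chosen again, and without 1 bird at 43 °C, 60 to 72. In all 24 such lists 31 members appeared, 4 higher and 27 lower, and 17 members appeared in fewer than 12 of them.

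Members of one direction varied together only weakly within temperatures. The median r between pairs of lower members over birds, after removal of temperature means, was 0.11 (telencephalon) and 0.10 (testis), beside 0.03 and 0.07 over pairs of eligible genes. Between pairs of higher members it was 0.05 and 0.11. Between a higher and a lower member it was 0.02 and -0.03. The first axis of this residual variation held 17.4% of the variance of the members in the telencephalon and 18.8% in the testis, beside 11.8% and 21.6% for all eligible genes. These pairs share birds and libraries, and the values are descriptions.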

How the data were processed

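Messenger RNA of posterior telencephalon and testis was sequenced from stranded libraries, per the labels' protocols. Trimmomatic 0.36, CASAVA, featureCounts 1.6.4 and HISAT2 2.1.0 are listed in the submitters' processing notes. Genome build, annotation and counting strand: not given in the sources used here, so reads of overlapping or near-identical genes could count for either. The authors deposited raw counts per gene, 1 table per tissue. The testis table holds a paired-end and a single-end column per bird, whole numbers, summed here. One testis sample (T142) has brain as its tissue label but testis in title and source name, and was kept as testis.

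CPM divide counts by the library total. Members were chosen as the report states, with Python 3.11.15. The members and lists were chosen with earlier results of these data known. Tests across genes used edgeR 4.0.16 (quasi-likelihood, robust, TMM, filterByExpr, all 3 temperatures of a tissue), with 43 °C set against the mean of 27 and 35 °C. DESeq2 1.42.0, other scalings and filters, single runs and leaving out birds were alternatives. The interaction took the tissues of a bird as independent libraries, with the bird as a block as an alternative. The edgeR fits of each tissue alone were tested on simulated counts, and the interaction, the bird block and DESeq2 were not. Birds are the replicates, and bird numbers pair the tissues because both came from the same animal (mean correlation of deviations 0.149 over 12523 genes, 0.0545 to 0.239). Named are, per direction, the members with the highest smaller absolute t and with the largest smaller absolute log2 difference. Where both were the same gene, as among the lower members, the next by difference was named. Gene lists and markers that need symbols were not run. A comparison with shuffled temperatures was not made.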

Additional observations from a re-analysis of the deposited data

Results flagged for a closer look

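One library stood apart from the others of its group in 2 of 30 groups tested, where chance flags about 1 in 20, or 1.5. ENSTGUG00000013819 was at 6.60 CPM in the telencephalon of bird T156 at 43 °C, against 1.98 to 3.60 CPM in the other birds at that temperature. In the testis the same bird was also the highest at 43 °C, at 6.72 CPM. ENSTGUG00000005744 was at 17.9 CPM in the testis of bird T157 at 35 °C, against 5.82 to 11.05 CPM in the others. T156 and T157 are both among the 3 birds whose paired-end testis run was the deeper one. The flagged value of T156 comes from the telencephalon, whose counts are not split by run, and its testis value was not flagged. The part of the run in the testis values of these birds was not tested.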

How the results depend on the processing

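Of the 100 members, 58 were chosen again after TMM scaling, 37 by mean difference in place of t, 43 against birds at 35 °C alone, 44 against birds at 27 °C alone and 53 when the 3 birds with a deeper paired-end run were left out. Those 3 birds were T154 and T157 at 35 °C and T156 at 43 °C, with none at 27 °C. Leaving out T156 alone kept 60, and the run and the loss of birds cannot be told apart. Leaving out 1 bird kept 60 to 89, with fewer than 67 without T135, T138, T141, T144 or T156. The 17 higher members became 59 with TMM and 30 against 35 °C alone, and 12 to 26 without 1 bird (26 without T135, T142 or T145). The testis difference in birds left out of the choice became 0.235 with TMM and 0.329 with the 22 birds that had both tissues. The other 14 testis and all 16 telencephalon alternatives moved it by less than the SD between birds at 43 °C. Lists of 50 and 300 genes were chosen as alternatives after the data were seen.

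In edgeR the 6 telencephalon genes called at 43 °C became 2 without a filter on low counts and 1 to 13 without 1 bird, moving by over 1.5 times for every bird except T138, T146, T156 and T157. DESeq2 called 95. In the testis the 0 genes became 5 with DESeq2 and 0 to 1 without 1 bird (1 without T139). The 3 genes for the tissue difference became 54 with DESeq2, 0 with the single-end run alone, 0 with the bird as a replicate block and 0 to 10 without 1 bird, moving by over 1.5 times for every bird except T140, T148, T152 and T154. No gene was called between 27 and 35 °C under any alternative, including each bird left out. The causes of these changes were not tested. The members' differences, mostly under 1.2-fold in the telencephalon, are close to the spread between birds.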
